A study of Mus musculus with 20 samples.

Results

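The 47 genes described here code for subunits, activators, inhibitors and assembly factors of the proteasome. They were chosen by name, as the autosomal protein-coding genes whose symbol starts with Psma, Psmb, Psmc, Psmd, Psme, Psmf or Psmg followed by a digit, and they are 47 of 20665 such genes in RefSeq's annotation of mm10. The immunoproteasome genes Psmb8, Psmb9 and Psmb10 were left out of the members by that rule and are given beside them. By role, 8 members belong to the alpha ring, 8 to the beta ring, 6 are ATPases, 11 are non-ATPase subunits of the regulatory particle, 5 are activators, 1 is an inhibitor and 6 are assembly chaperones. The symbols of the remaining 2, Psmc3ip and Psme3ip1, carry the name of a subunit, but the genes code for proteins named after binding to it.

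Hepatocytes, the main cells of the liver, had been isolated by perfusion, and histone H3 acetylated at lysine 27 (H3K27ac), which marks promoters and enhancers in use, was mapped in them by chromatin immunoprecipitation and sequencing. The old group held 5 libraries of 23-month C57BL/6J mice and the young group 5 libraries of 5-month C57BL/6N mice. Age and substrain therefore cannot be told apart. The labels name no genotype or agent beyond these, and whether libraries stem from separate mice is not stated, so the p-values below measure only the spread between libraries.

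The proteasome is the protease complex that breaks down proteins tagged with ubiquitin. Stacked alpha and beta rings form a barrel, whose beta ring holds the cutting sites. A regulatory particle of ATPases and non-ATPase subunits recognises ubiquitin, unfolds the substrate and opens the alpha ring. Most of these genes are transcribed in every cell. In mammalian cells the transcription factor NRF1 (gene Nfe2l1) raises them together through antioxidant response elements when the proteasome is inhibited. Psma8 and Psmb11 are known from testis and thymus, and the immunoproteasome subunits are induced by interferon.

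Promoter sequences in RefSeq's GRCm38.p6 (mm10) tables were matched for 39 of the 47 members. The core of the antioxidant response element, searched as TGACNNNGC on both strands of the 250 bases before each RefSeq start, lay in 5 of the 43 member records (11.6%), against 10.6% of all 20085 autosomal records. These stretches are shown because that element is the one by which NRF1 is known to act on subunit genes; each is written on the strand that reads the core, which is in capitals.
Psmb5, chr14:54618024-54618052, minus strand: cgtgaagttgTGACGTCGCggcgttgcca
Psmb6, chr11:70525338-70525356, plus strand: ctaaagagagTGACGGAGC
Psmd9, chr5:123228149-123228177, plus strand: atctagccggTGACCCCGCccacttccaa
Psmc6, chr14:45329587-45329615, minus strand: gagcaatgccTGACTTAGCtactggctgg
Psmd12, chr11:107479278-107479299, minus strand: ggggcaaatgTGACACAGCaga

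The core began 47, 9 and 31 bases before the RefSeq start on the gene's own strand at Psmb5, Psmb6 and Psmd9. At Psmc6 and Psmd12 it lay on the opposite strand, with its outermost base 227 and 247 bases upstream. A CCAAT box (CCAAT, both strands) lay in 32.6% of member records and 35.3% of all records. A GC box (GGGCGG, both strands) lay in 51.2% and 43.4%, and the exact palindrome of nuclear respiratory factor 1 in 2.33% of member records, that of Psma2 only, and 1.08% of all. In the Psmd9 record the GC box and the antioxidant core overlap. A match of letters is a description and not a binding site. The median GC content was 57.6% in member records and 56% in all records, and the median ratio of observed to expected CpG was 0.772 and 0.547.

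The upstream sequences of Psmb5 and Psme3 are given whole because, at gene ends, their H3K27ac values as deposited did not overlap between the ages. Psmd4 and Psme3ip1 share that and are described with them below. In Psmb5 the capitals mark the antioxidant core and in Psme3 a CCAAT box on the opposite strand.
Psmb5, chr14:54617996-54618245, minus strand: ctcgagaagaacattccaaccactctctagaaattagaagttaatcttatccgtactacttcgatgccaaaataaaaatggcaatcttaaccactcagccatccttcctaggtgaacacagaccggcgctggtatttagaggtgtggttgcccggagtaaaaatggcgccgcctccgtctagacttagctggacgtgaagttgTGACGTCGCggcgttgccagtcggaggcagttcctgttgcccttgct
Psme3, chr11:101315963-101316212, plus strand: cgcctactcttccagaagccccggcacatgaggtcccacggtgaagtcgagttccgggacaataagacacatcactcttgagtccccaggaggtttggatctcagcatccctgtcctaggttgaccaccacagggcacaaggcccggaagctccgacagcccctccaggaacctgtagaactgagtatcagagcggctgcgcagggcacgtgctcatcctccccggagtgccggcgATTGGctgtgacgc

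The libraries held 21213 to 30195 called regions from 6295930 to 15544145 tags. The IP efficiency of the file headers, which is the percentage of tags that fall in called regions, was 24.53 to 35.84% in old and 34.63 to 48.23% in young libraries, and with it as a covariate in limma's test 1 gene and 0 members passed. Young replicates 1 and 3 had a called region at 8546 and 8539 gene ends, the fewest of the 10, against 9186 to 10627 in the others. Of the hepatocyte markers 8 of 8 were called, with summed scaled tags of 1773 to 4185 in old and 4842 to 6226 in young libraries. All 7 that could be tested were lower in old libraries after centring, with a median log2 difference of −0.40. Of all tested genes 51.6% were higher. Of the 7 markers 3 had an unadjusted limma p under 0.05, against 13.1% of all tested genes, and 0 passed limma's adjusted test. The part of these markers in the results was not tested. For the other liver cell types, listed markers such as Clec4f, Adgre1, Kdr, Pecam1, Cdh5, Lrat, Des, Krt19, Krt7, Epcam, Ptprc and Cd3e had no called region in any library. Other listed markers were called. Cd68 (macrophage) and Sox9 (cholangiocyte) were called in 5 old and 5 young libraries. Reln (stellate cell) was called in 5 and 4, Lyve1 (endothelial) in 4 and 4 and Cd79a (lymphocyte) in 5 and 3. Spp1 (cholangiocyte) was called in 2 and 2, and the endothelial Stab2 and Clec4g in 1 old library each. Of 6 Kupffer cell and macrophage markers 1 was called, with summed scaled tags of 183.5 to 309.1 in old and 242.5 to 530.0 in young libraries. Of 6 endothelial markers 3 were called (0 to 57.8 in old and 0 to 26.3 in young libraries). Of 6 stellate cell markers 1 was called (44.5 to 103.1 and 0 to 144.0), of 5 cholangiocyte markers 2 (221.6 to 520.1 and 253.2 to 580.4) and of 6 lymphocyte markers 1 (52.4 to 139.6 and 0 to 203.5, old before young). In such bulk material, fewer cells of a type and less signal per cell cannot be told apart.

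Nearly all members were marked in hepatocytes of both ages. A region within 1 kb of either end of the gene was called in all 10 libraries at 39 members (83%), against 35% of all autosomal genes. No library called one at 3 members (6.38%), against 44.7% of all genes. These were Psmb11, the thymus subunit, Psme2b and Psmf1, an inhibitor of the core particle. The number of members called in a library was 41 to 43 in old and 40 to 44 in young libraries.

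The other 5 members were called in some libraries, and all but Psmd2 were missed in libraries of both ages. Psmc3, an ATPase, was called in 4 old and 4 young libraries and missed in old replicate 5 and young replicate 1. Psmg1, an assembly chaperone of the alpha ring, was likewise called in 4 and 4 and missed in old replicate 1 and young replicate 3. Psmd2, the large scaffold subunit of the regulatory particle, was called in 5 old libraries and in 4 young ones, all but young replicate 1. Psma6 was called in 1 old and 3 young libraries, and Psma8, the testis subunit, in 1 young library. The absence of a call shows only that the region did not pass the authors' threshold.

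At Psmf1, Psma6 and Psma3 the annotated gene ends lay away from where the signal was. The ends nearest to the RefSeq start were 2.89 kb upstream of it at Psmf1, 14.6 kb upstream at Psma6, which has another RefSeq start there, and 5.34 kb upstream at Psma3. Within 1 kb of a RefSeq start, Psmf1 carried 158.8, 163.0, 161.6, 110.3 and 100.9 scaled tags in the old libraries, against 156.8, 213.1, 142.3, 244.2 and 155.4 in the young ones. So its promoter was called in all 10 libraries, although the gene-end rule finds nothing there, and the ages overlapped. At the same kind of window Psma6 carried 226 ± 26.2 scaled tags in old and 309 ± 35.6 in young libraries, and Psma3 286 ± 34.8 and 406 ± 30.1 (SD, n = 5 each). As deposited, the ages did not overlap there. Psma6 had 191.9 to 259.8 in old and 261.8 to 345.9 in young libraries, and Psma3 251.0 to 343.7 and 376.0 to 452.1. Psmb5, Psmd4, Psme3 and Psme3ip1 did not overlap at their RefSeq starts either. The share of all genes without overlap at RefSeq starts was not computed. At gene ends, 871 genes (12%) were lower in old libraries without overlap as deposited. Of the 39 members with a promoter record, 34 (87.2%) had a region at a RefSeq start in all 10 libraries, against 36.5% of genes with such a record.

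**Figure D1:**
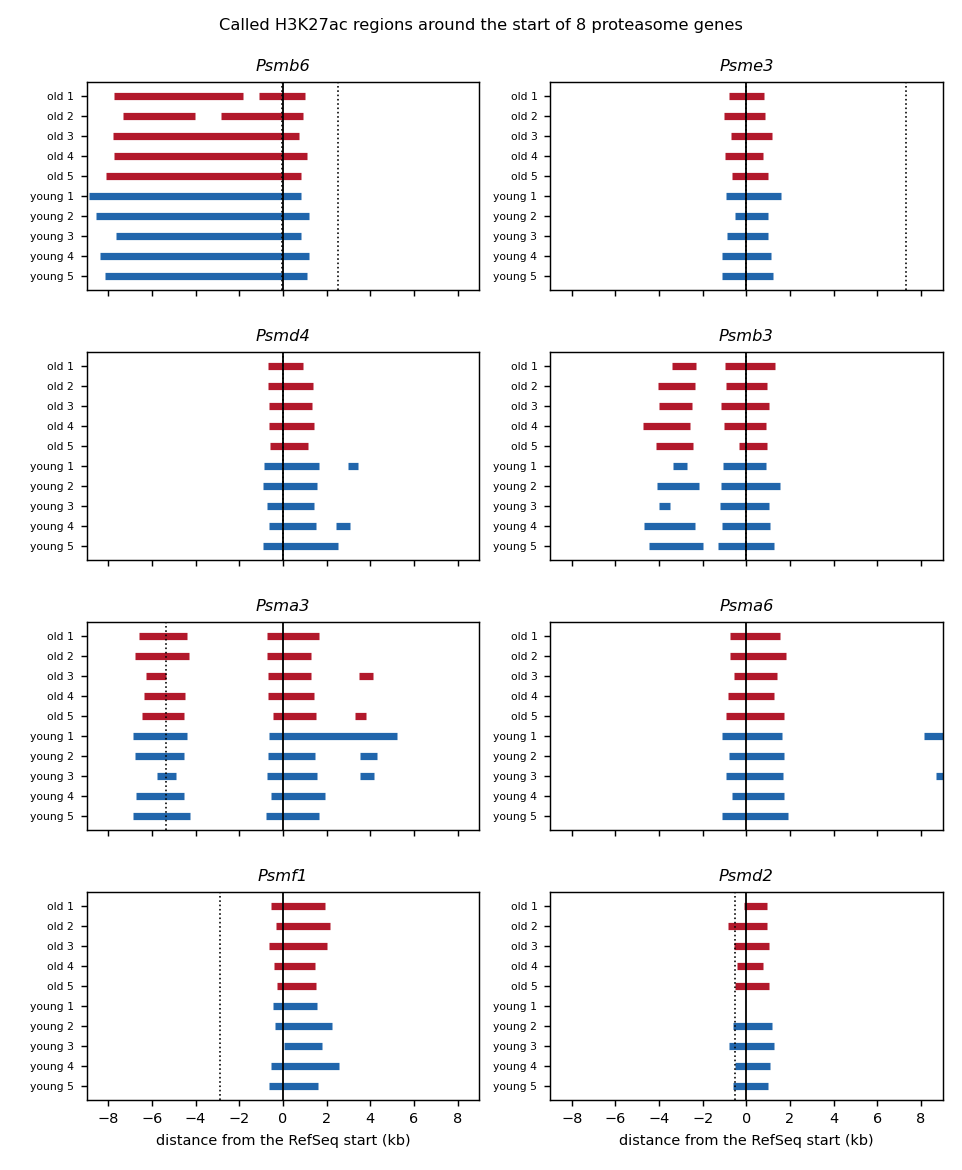
Called H3K27ac regions around the start of 8 members, with distance from the RefSeq start in kb on the x axis and 1 line per library on the y axis (red, old; blue, young; solid vertical line, RefSeq start; dotted line, annotated gene end). The Psmb6 region reaches 7.65 kb or more upstream in 8 libraries and is split in old replicates 1 and 2. At Psmf1 the bars sit at the RefSeq start and not at the dotted line. At Psma6 every library has a bar at the RefSeq start, and the annotated gene ends lie outside the panel. Young replicates 1 and 3 have a further Psma6 bar from 8.16 and 8.70 kb.

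At the median, the members' marks were lower per length and narrower than those of all tested genes. The quantity used is scaled tags, the tags of a region, brought by the authors to a depth of 10000000 per library, and summed here over the regions of a gene. Per kb of called length the 39 members had a median of 90.6 scaled tags, against 101 over all 7239 genes called in all libraries, and 14 of 39 were above the median gene. Their median called length was 2075 bp, against 2575 bp, with 13 of 39 above the median gene. The median of tags over input was 10.1 for members and 10.8 for all genes. Psme4, the large nuclear activator, had the highest level of the members per length at 168 scaled tags per kb, followed by Psmd11 with 159 and Psma7 with 153. Psma3 had the lowest at 43.8, taken at its annotated end, and then Psmd9 with 48.2 and Psmd4 with 57.7.

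**Figure D2:**
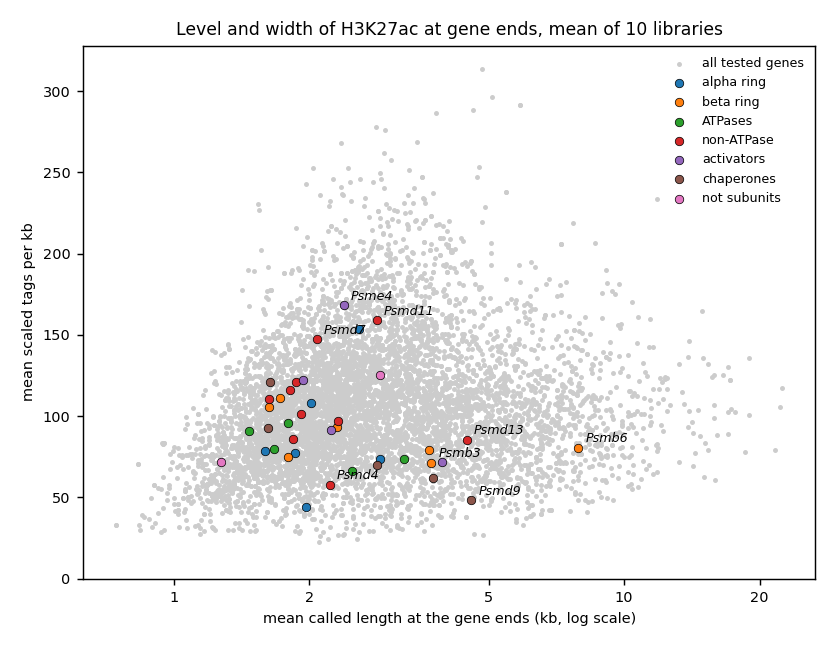
Mean scaled tags per kb of called length (y axis) against mean called length at the gene ends in kb (x axis, log scale), both over 10 libraries; grey points are all 7239 tested genes and coloured points the 39 members by role. Psmb6 is the widest member at 7899 bp and Psme4 the highest per length at 168 scaled tags per kb.

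Members shared regions with neighbouring genes at a share close to that of all tested genes. At 13 of 39 members (33.3%) the region also lay within 1 kb of an end of another gene in all 10 libraries, against 32.9% of all 7239 genes, so their values belong to both genes. The pairs were Psma2 with Mrpl32, Psma4 with Hykk and AY074887, Psma7 with Ss18l1, Psmb1 with Tbp and Psmb3 with Pcgf2. Psmc2 shared its region with Dnajc2, Psmc5 with Ftsj3, Psmd8 with Catsperg1, Psmd13 with Sirt3, Psme2 with Rnf31 and Psmg2 with Cep76. The region of Psmc3ip was shared with Retreg3 and that of Psme3ip1 with Rspry1 and LOC115486880. In some libraries Psmb6 shared with Gltpd2 (8), Psme1 with Fitm1 (9), Psmg1 with Brwd1 (8), Psmg3 with Tmem184a (6) and Psmd5 with Cutal (1). Besides the partners above, Psmb3 shared with Pip4k2b in 7 libraries and Psme2 with Emc9 in 9.

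Summed over all members, old hepatocytes carried fewer scaled tags than young ones. The sums were 8080, 8219, 9008, 7062 and 6409 scaled tags in the old libraries, against 8722, 13046, 9609, 12462 and 9678 in the young ones. Only old replicate 3 was above a young library, young replicate 1. The means were 7755 ± 1023 and 10703 ± 1921 (SD, n = 5 each), a log2 ratio of −0.46, and −0.60 without young replicates 1 and 3. The genome moved with it: the median tested gene differed by −0.36 before centring, and as a share of all tags in called regions the members took 0.230 to 0.261% in old and 0.240 to 0.280% in young libraries, a log2 ratio of −0.13. A sum over members is not tested, and the part of the IP efficiency in it was not tested.

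By role, the beta ring had the lowest ratio of old to young sums over all called regions, though not over regions at least 8-fold over input. Its sums were 1258, 1160, 1990, 1519 and 1382 scaled tags in the old libraries, against 2291, 2939, 2376, 2566 and 1897 in the young ones. Only old replicate 3 reached above a young library, young replicate 5. The log2 ratio of means was −0.72, and −0.53 without Psmb6, close to the −0.50 of Psmc3ip with Psme3ip1. With Psmb6 kept in, the ratio of the beta ring was −0.33 per kb of called length and −0.37 as a share of tags in called regions. Neither of these was computed without Psmb6, whose region was split in old replicates 1 and 2. All of these values include Psmb3, whose calls at its other end differed between libraries, as given below. At least 8-fold over input the beta ring's log2 ratio was −0.77, against −1.54 for the assembly chaperones and −0.88 for Psmc3ip with Psme3ip1.

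The other roles had smaller differences over all called regions. The alpha ring summed to 1064 ± 125 in old and 1386 ± 355 scaled tags in young libraries, the ATPases to 779 ± 162 and 1060 ± 237, and the non-ATPase subunits to 2168 ± 329 and 2897 ± 485. The activators summed to 935 ± 152 and 1268 ± 277, the assembly chaperones to 972 ± 233 and 1148 ± 324, and Psmc3ip with Psme3ip1 to 375 ± 38 and 530 ± 95.9 (SD, n = 5 each, old before young). Their log2 ratios were −0.38, −0.44, −0.42, −0.44, −0.24 and −0.50 in that order. As shares of tags in called regions the same ratios were −0.03, −0.11, −0.09, −0.09, 0.09 and −0.16, so that the direction of the chaperones turned.

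**Figure D3:**
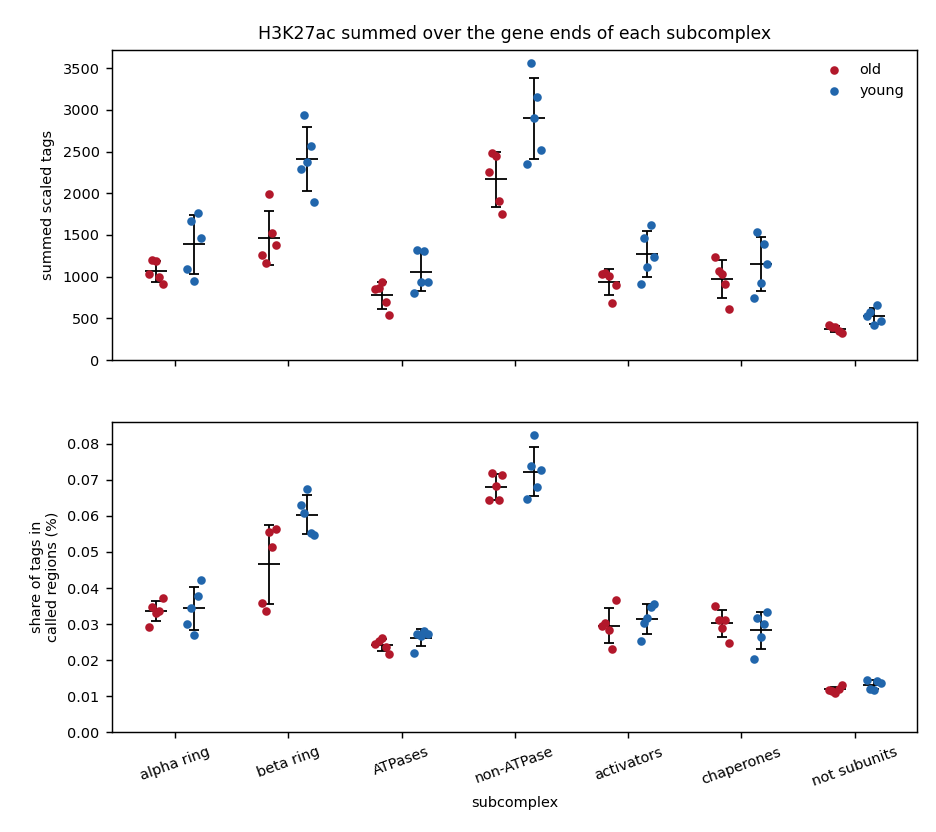
Scaled tags summed over the gene ends of each role (upper panel) and the same sums as a percentage of all tags in called regions (lower panel), with 1 point per library, old in red left of young in blue, and black bars for the mean and SD of 5 libraries. In the upper panel old means are below young means in all 7 roles drawn (the inhibitor Psmf1, with no called region at its ends, is not drawn). In the lower panel the beta ring, drawn with Psmb6, keeps the widest gap, and its share without Psmb6 was not computed.

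Over all called regions, called length differed less than tags. All members together covered 95.3 ± 8.22 kb in old and 111.7 ± 16.3 kb in young libraries (SD, n = 5 each), a log2 ratio of −0.23 and of −0.20 without Psmb6. Young replicate 5 had the longest member length, 128.5 kb, with a fragment length of 620 bp, against 414 to 444 bp in the other 9 libraries, and the most tags; without it the ratio was −0.17, and the part of fragment length was not tested. The beta ring covered 19.6 ± 3.33 and 25.9 ± 2.10 kb (−0.40), the alpha ring 12.8 ± 1.80 and 15.7 ± 4.15 kb (−0.29) and the non-ATPase subunits 23.1 ± 1.98 and 25.7 ± 1.59 kb (−0.16). The ratios of the ATPases, activators, chaperones and the 2 binding proteins were −0.21, −0.24, −0.05 and −0.14. At least 8-fold over input the length ratio was −0.45 for all members and −1.62 for the chaperones, beyond their tag ratio of −1.54. Without young replicate 5 it was 0.06 for the chaperones, −0.13 for the activators and −0.20 for the alpha ring.

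Gene by gene, no member passed the test once each library had been centred on its median gene. Of 7239 genes, 5 (0.0691%) passed limma's test on log2(scaled tags + 1) with Benjamini-Hochberg adjustment at 0.05, and 0 of the 39 members did. At an unadjusted p under 0.05 there were 950 genes (13.1%) and 2 members (5.13%), Psmb3 and Psme3, both lower in old libraries. The quasi-likelihood test of edgeR called 6 genes (0.0829%) and 0 members, and DESeq2 called 154 genes (2.13%) and 1 member, Psme3. Of the members 15 were higher and 24 lower in old libraries, and the share higher was 38.5%, against 51.6% of all genes. Their median log2 difference was −0.034, against 0.0097 over all genes, −0.001 against 0.015 per kb of called length, and −0.022 without young replicates 1 and 3, where again 0 members passed. At RefSeq starts the median was −0.080 over 34 members, against 0.012 over the 6000 genes tested there.

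For called length, 1 gene of 7239 (0.0138%) and 0 members passed limma's test, with 560 genes (7.74%) and 1 member, Psmb3, at an unadjusted p under 0.05. The members' median log2 difference of length was 0.0088 and that of all genes 0.021. Without centring, 864 genes (11.9%) passed for scaled tags, 859 of them lower in old libraries, and 3 members (7.69%) were among these: Psmb5, Psmd4 and Psme3. They stand beside the difference of the median gene given above.

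**Figure D4:**
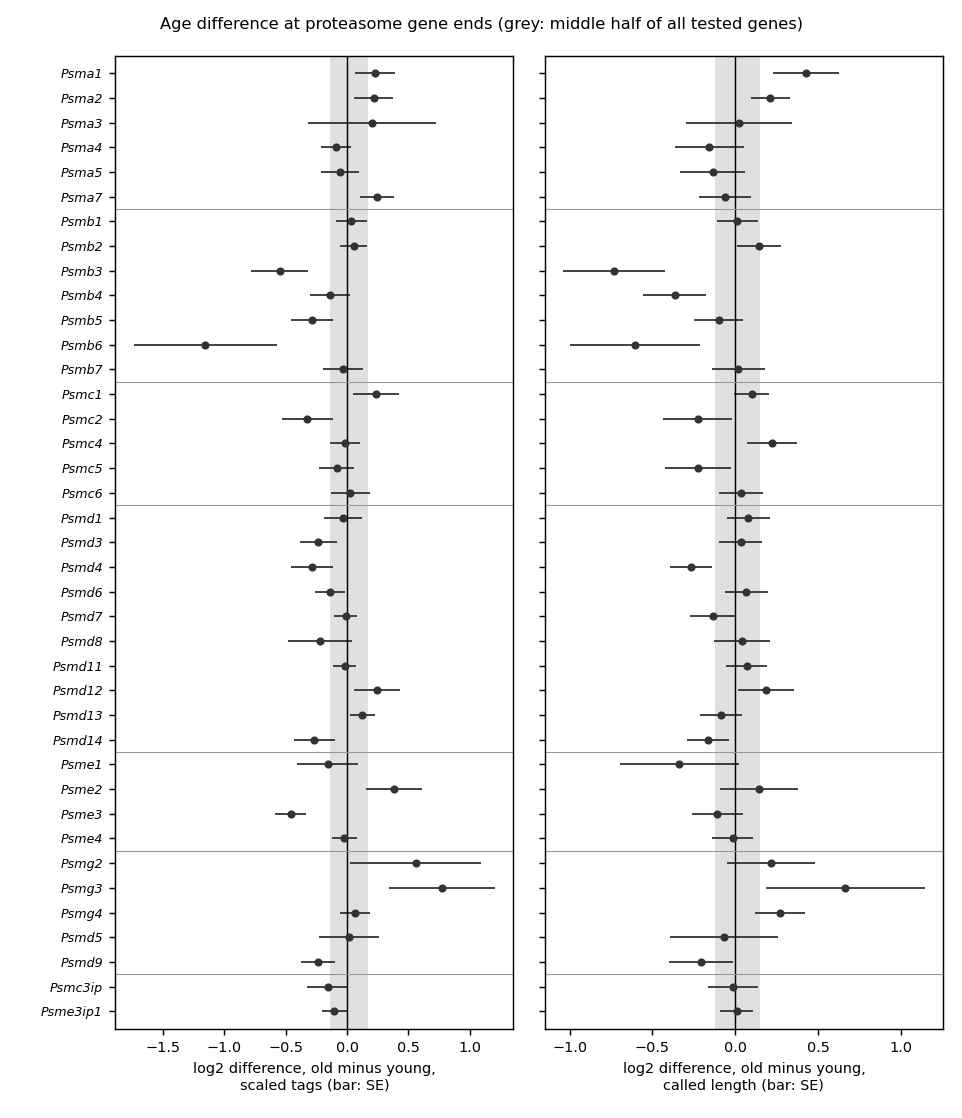
Log2 difference, old minus young, of scaled tags (left) and of called length (right) for the 39 members by role, after centring each library on the median tested gene; bars are SE of the limma fit on 5 libraries per age and the grey band is the middle 50% of all 7239 genes. Psmb6 at −1.16, Psmb3 at −0.55 and Psme3 at −0.46 lie farthest to the left and Psmg3 at 0.77 farthest to the right. None passed the adjusted threshold, and the Psmb6 region was split in old replicates 1 and 2.

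In the alpha ring, Psma7 and Psma4 marked the ends of the range. Psma7, an alpha-ring subunit, carried 344.9, 523.0, 318.2, 357.9 and 305.8 scaled tags in the old libraries, against 288.2, 461.9, 329.6, 513.3 and 437.5 in the young ones. Old replicate 2 stood apart from the other old libraries, the ages overlapped, and the log2 difference of 0.24 (SE 0.14) did not pass (limma adjusted p = 0.469); it was 0.16 without old replicate 2 and −0.13 without centring. Psma4 carried 182.8, 161.5, 194.9, 147.4 and 178.7 scaled tags in the old libraries, against 191.9, 280.5, 228.8, 279.0 and 222.9 in the young ones. Old replicate 3 was above young replicate 1, and the log2 difference of −0.09 (SE 0.12; limma adjusted p = 0.773) was −0.026 without old replicate 2, −0.18 without old replicate 5 and 0.07 per kb. Psma1, Psma2, Psma3 and Psma5 lay between −0.06 and 0.22.

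Psma3 shows how much 1 library can decide. At its annotated end it carried 80.4, 87.8, 50.9, 71.6 and 77.8 scaled tags in the old libraries, against 157.4, 120.9, 15.7, 126.0 and 93.3 in the young ones. All old libraries lay below the young ones except for young replicate 3, and the log2 difference was 0.20 with that library and −0.34 without it. At the RefSeq start it was −0.13 (SE 0.12; limma adjusted p = 0.630). Psma3 was chosen after its values were seen.

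In the beta ring the 3 subunits with cutting sites differed in their log2 values. Psmb6, the subunit of caspase-like cutting, carried 110.3, 109.7, 808.0, 554.0 and 598.0 scaled tags in the old libraries, against 886.1, 1199, 1018, 884.1 and 685.5 in the young ones. Old replicates 1 and 2 stood far below the others, and old replicate 3 was above young replicate 5. In 8 libraries the region ran on to the end of Gltpd2 and was 8475 to 9755 bp long, while in old replicates 1 and 2 it was 2122 and 3735 bp long and a separate region of 600.1 and 378.3 scaled tags lay upstream of it, outside the window. The log2 difference was −1.16 (SE 0.59; limma adjusted p = 0.415) for tags, −0.75 without old replicate 1, −0.73 without old replicate 2 and −0.54 per kb. The called extent of the region thus differed along with its tags. The sums of old replicates 1 and 2 leave out the separate upstream region, and the part of the split in the difference was not tested.

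Psmb5, the subunit of chymotrypsin-like cutting and the target of proteasome inhibitor drugs, carried 172.8, 172.6, 155.3, 184.5 and 140.6 scaled tags in the old libraries, against 322.2, 288.0, 258.8, 265.2 and 184.6 in the young ones. The ages did not overlap on this scale, by 0.1 scaled tags between old replicate 4 and young replicate 5, and they overlapped after centring. The log2 difference was −0.28 (SE 0.17; limma adjusted p = 0.488) with centring and −0.66 without (limma adjusted p = 0.0405); the centred difference was −0.14 without young replicate 1. Psmb7, the subunit of trypsin-like cutting, differed by −0.04, with 144 ± 16.4 scaled tags in old and 193 ± 31.8 in young libraries (SD, n = 5 each); it was named after its values were seen.

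Among the structural beta subunits, Psmb3 carried 231.9, 187.4, 304.3, 105.5 and 99.3 scaled tags in the old libraries, against 257.6, 451.0, 355.5, 332.8 and 251.5 in the young ones. Old replicate 3 was above young replicates 1 and 5. The log2 difference was −0.55 (SE 0.23; limma adjusted p = 0.350) for tags, −0.73 for called length and 0.18 per kb, so that its direction turned with the length. The region at its start was 1306 to 2291 bp long in old and 1998 to 2706 bp in young libraries, and further regions at the other end of the gene were called in 2 of 5 old libraries, replicates 1 and 3, and in 5 of 5 young ones. In 7 libraries Psmb3 shared a region with Pip4k2b, so its values there belong to that gene as well. Psmb3 was chosen after its values were seen. Psmb2 had the highest log2 difference of the ring, 0.06 (SE 0.11; limma adjusted p = 0.852), 0.014 to 0.11 without 1 library, with 182.8, 161.5, 202.5, 147.9 and 138.2 scaled tags in the old libraries, against 193.6, 254.6, 175.7, 227.1 and 187.2 in the young ones. Psmb1 at 0.03 and Psmb4 at −0.14 lay between.

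**Figure D5:**
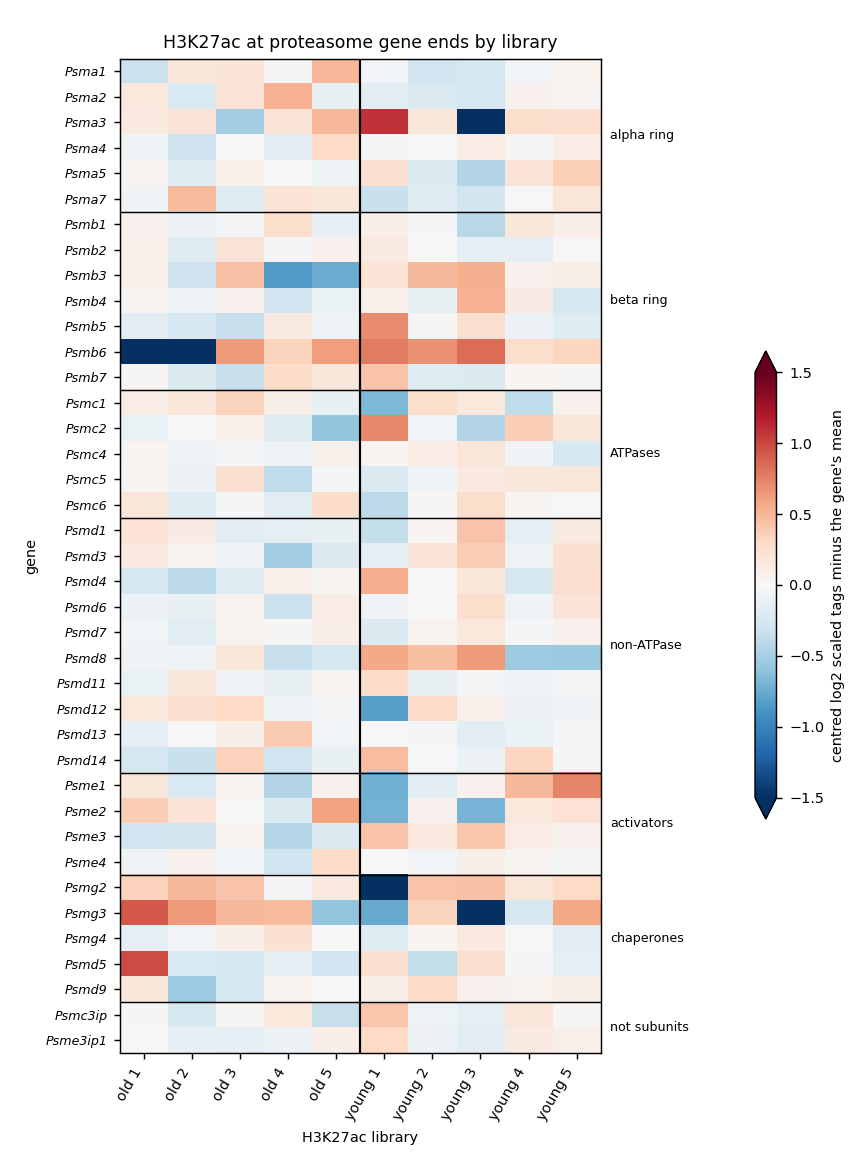
Centred log2 scaled tags minus each gene's mean for the 39 members (rows, by role) in the 10 libraries (columns, old left of young); red is above and blue below the gene's mean, and values past 1.5 share the end colours. Single dark cells mark Psmb6 in old replicates 1 and 2, Psma3 in young replicate 3 and Psmg2 in young replicate 1, and no role forms a block that follows age.

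The ATPases unfold the substrate and feed it into the barrel. Psmc2 carried 197.3, 223.9, 227.6, 160.1 and 108.0 scaled tags in the old libraries, against 357.3, 302.9, 175.0, 398.4 and 259.6 in the young ones. Young replicate 3 lay inside the old range, and the log2 difference was −0.32 (SE 0.21; limma adjusted p = 0.510), or −0.18 without young replicate 1. Psmc1 carried 167.5, 184.3, 199.3, 142.1 and 108.8 scaled tags in the old libraries, against 98, 271.8, 192.7, 172.0 and 174.3 in the young ones. Young replicate 1 was the lowest of all, and the log2 difference of 0.23 (SE 0.19; limma adjusted p = 0.602) was 0.09 without young replicate 1 and −0.14 without centring. Psmc4, Psmc5 and Psmc6 lay between −0.08 and 0.03.

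Among the non-ATPase subunits, Psmd4, a ubiquitin receptor, had even values within each age. It carried 97.7, 93.4, 103.7, 106.0 and 91.3 scaled tags in the old libraries, against 173.3, 171.6, 146.4, 140.5 and 149.3 in the young ones. All old libraries lay below all young ones, with 34.5 scaled tags between the nearest, and its called length did not overlap either, at 1587 to 2094 bp in old and 2134 to 3414 bp in young libraries. After centring the ages overlapped and the log2 difference was −0.29 (SE 0.17; limma adjusted p = 0.484), with −0.18 without young replicate 1 and −0.66 (limma adjusted p = 0.0386) without centring. Length as deposited was lower in old libraries without overlap at 260 genes (3.59%) and, of the members, at Psmd4 alone. As deposited, 871 genes (12%) were lower in old libraries without overlap, and 4 of 39 members (10.3%) were: Psmb5, Psmd4, Psme3 and Psme3ip1.

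Psmd12, a lid subunit, had the highest log2 difference of this role. It carried 219.3, 245.2, 247.1, 160.6 and 147.7 scaled tags in the old libraries, against 112.7, 350.7, 230.9, 267.1 and 203.9 in the young ones. Young replicate 1 was the lowest, and the difference of 0.24 (SE 0.19; limma adjusted p = 0.591) was 0.07 without young replicate 1 and −0.13 without centring. Psmd14, the deubiquitinase of the lid, differed by −0.27 with 123 ± 34.6 in old and 192 ± 44.8 scaled tags in young libraries (SD, n = 5 each; limma adjusted p = 0.510), and Psmd11 by −0.02 with 386 ± 67.3 and 504 ± 61.3 (limma adjusted p = 0.946); both were named after their values were seen. The remaining 6 tested non-ATPase subunits lay between −0.24 and 0.12.

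Psme3 was the only tested member whose ages were apart both as deposited and after centring. It codes for the nuclear activator of the core particle that acts without ubiquitin. It carried 169.5, 182.3, 221.3, 134.1 and 138.2 scaled tags in the old libraries, against 287.1, 337.5, 310.6, 326.2 and 235.5 in the young ones. All 5 old libraries were below all 5 young ones, with old replicate 3 next to young replicate 5, and they stayed apart after centring, as did 117 of all genes in this direction (1.62%). The log2 difference was −0.46 (SE 0.12), with the lowest adjusted p of the members, which missed the threshold (limma adjusted p = 0.189). Over the alternatives it lay between −0.83 without centring and −0.33 without young replicates 1 and 3, always in the same direction, and its adjusted p between 0.0325 and 0.535. It passed with DESeq2 (adjusted p = 0.0328) and without centring (limma adjusted p = 0.0325), and in no other fit. The called length was 1753 ± 127 bp in old and 2119 ± 410 bp in young libraries (SD, n = 5 each). Per kb of called length the limma adjusted p was 0.535.

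Psme2, which joins Psme1 in the interferon-induced activator, had the highest log2 difference of the activators. It carried 328.3, 309.3, 258.4, 188.7 and 293.0 scaled tags in the old libraries, against 156.9, 389.3, 174.4, 411.5 and 319.4 in the young ones. The old libraries lay inside the young range, and the difference of 0.38 (SE 0.23; limma adjusted p = 0.480) was 0.25 without young replicate 1 and 0.01 without centring. At its RefSeq start it was 0.47 (SE 0.20; limma adjusted p = 0.329). In that fit 13 of 6000 genes (0.217%) and 0 members passed. At an unadjusted p under 0.05 it had 817 genes (13.6%) and 2 of 34 members (5.88%), Psme2 and Psme3. Psme1 at −0.16 and Psme4 at −0.02 had overlapping ages.

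Among the assembly chaperones, values scattered widely between libraries. Psmg3 carried 342.3, 296.0, 257.8, 216.9 and 90.5 scaled tags in the old libraries, against 107.6, 332.3, 55.2, 219.8 and 290.8 in the young ones. The ages overlapped over nearly their whole range, with old replicate 5 and young replicates 1 and 3 low. The log2 difference of 0.77 (SE 0.43; limma adjusted p = 0.457) was 0.41 without young replicate 3, 0.12 per kb and 0.16 without young replicates 1 and 3. Psmg2, named after its values were seen, had 24.3 scaled tags in young replicate 1 and 218.4 to 323.1 in the other young libraries, against 139.0 to 243.7 in the old ones. Its log2 difference of 0.56 was −0.05 without that library.

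Psmd9, a chaperone of the ATPase ring and 1 of the promoters shown above, carried 221.3, 142.7, 167.3, 177.1 and 149.3 scaled tags in the old libraries, against 215.2, 349.0, 230.2, 297.3 and 226.5 in the young ones. Only old replicate 1 reached above a young library, young replicate 1, and the log2 difference was −0.24 (SE 0.14; limma adjusted p = 0.474), or −0.13 without old replicate 2. Psmg4 at 0.06 and Psmd5 at 0.02 lay near 0.

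Of the 2 binding proteins, Psme3ip1, known as a partner of the Psme3 activator, carried 331.0, 322.4, 306.8, 272.0 and 271.6 scaled tags in the old libraries, against 415.6, 459.6, 331.7, 528.4 and 379.2 in the young ones. The ages were apart by 0.7 scaled tags and overlapped after centring, with a log2 difference of −0.11 (SE 0.10; limma adjusted p = 0.677), which was −0.044 without young replicate 1 and −0.16 without young replicate 3. Psmc3ip, known for its part in meiotic recombination, carried 83.7, 73.6, 84.9, 79.5 and 49.2 scaled tags in the old libraries, against 112.1, 114.6, 83.8, 135.9 and 90.1 in the young ones. Old replicate 3 was above young replicate 3, and the log2 difference was −0.16 (SE 0.17; limma adjusted p = 0.71), which was −0.093 without old replicate 5 and −0.075 without young replicate 1.

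Of the immunoproteasome genes, Psmb10 was called in all 10 libraries. It carried 122.9, 160.4, 133.3, 103.4 and 77.0 scaled tags in the old libraries, against 167.6, 264.3, 252.0, 162.1 and 127.1 in the young ones. The ages overlapped and the log2 difference was −0.31 (SE 0.20; limma adjusted p = 0.518). Psmb9 was called in 4 old and 4 young libraries and Psmb8 in 4 old and 3 young libraries, both missed in old replicate 5 and young replicate 1.

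Other genes of the ubiquitin-proteasome system likewise held no call. Of 35 listed genes 34 were matched and 29 were called in all libraries, with 16 higher and 13 lower in old libraries. None passed limma's adjusted test. At an unadjusted p under 0.05 there were 3 of the 29, against 13.1% of all tested genes. The median log2 difference was 0.017, against 0.0097 over all genes. Among those 3 were Akirin2, which brings proteasomes into the nucleus, and Rad23b, a shuttle for ubiquitin chains. Akirin2 had 286 ± 45.5 scaled tags in old and 431 ± 55.5 in young libraries (SD, n = 5 each), without overlap, and a log2 difference of −0.22 (SE 0.08; limma adjusted p = 0.280). Rad23b differed by −0.25 (limma adjusted p = 0.376).

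Of the 5 tested regulators of the subunit genes, 3 were higher and 2 lower in old libraries, and none passed. Nfe2l1, the gene of NRF1, had 332 ± 64.3 scaled tags in old and 382 ± 68.7 in young libraries, a log2 difference of 0.17 (SE 0.13; limma adjusted p = 0.580). Nfe2l2 had 887 ± 165 and 1129 ± 192 (0.02), Ngly1, which removes glycans from NRF1, 252 ± 43.4 and 334 ± 52.9 (−0.04), and Ddi2, its protease, 656 ± 324 and 856 ± 228 (−0.11; SD, n = 5 each, old before young). Nfyb, a subunit of the factor that binds CCAAT boxes, had 406 ± 164 and 469 ± 148 (0.13). Vcp, the segregase that hands substrates to the proteasome, differed by 0.03 and Adrm1, a ubiquitin receptor, by −0.09. Ecpas and Nfyc had no called region at an end in any library.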

How the data were processed

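The authors called regions in each of the 10 H3K27ac libraries with HOMER in histone mode against its own input, without pooling, per the file headers. Peaks of 500 bp at least 1000 bp apart were joined. A region had to exceed its input 4-fold with a Poisson p of 1e-04 and its 10000 bp surroundings 4-fold. Per the submitters' processing notes the build is mm10. The aligner is not given in the sources used here. Human chromatin was added as a spike-in, per the labels' protocols, and spike-in scaling was not used here. The deposited signal of a region is its tags scaled by the authors to 10000000 per library. The deposited total tags, in steps of 0.5, are expected counts, and the fold over input is a ratio the authors computed. Region length (bp) is as deposited. The 10 input samples enter only through that fold.

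Members and lists were chosen with earlier results of these data known. For each gene of RefSeq's GRCm38.p6 table, regions within 1 kb of either annotated end were summed per library. Genes called in all 10 libraries were tested with limma 3.58.1 (mean-dependent prior) on log2(scaled tags + 1), after centring each library on its median tested gene, with Benjamini-Hochberg adjustment over 7239 genes at 0.05. Log2 differences are old minus young and understate changes of weak genes. A gene called in every library had to pass the authors' threshold in both ages, so the 39 tested members are not all members. Expected counts were rounded for edgeR 4.0.16 and DESeq2 1.42.0. Per-library values are given for the highest and lowest tested member of each role by log2 difference, for members past the threshold and for those without overlap, besides Psma3, Psmb3 and (at its start) Psmf1, chosen after their values were seen. On simulated tags for 7239 genes, the limma step recovered 72% of 2-fold and 95% of 4-fold changes among 200 changed genes, with 11 false calls. The simulation drew tags per gene without calling regions, so it did not cover split or missed calls. Replicates were distinct libraries: any pair differed by a chi-square of 6.14 or more per gene. Software was Python 3.11.15 with numpy 2.4.6, matplotlib 3.10.9 and pandas 2.3.3, and R 4.3.3. Tags are not independent molecules.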

Additional observations from a re-analysis of the deposited data

Results flagged for a closer look

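A value stood apart from its group. At Psma7, old replicate 2 carried 523 scaled tags, and the nearest of the other old libraries 357.9. Its gap to that library, divided by the range of the old group, was above Dixon's critical value for 5 values. Of 44 groups of 5 that were examined this was the only one, and chance gives about 1 in 20.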

How the results depend on the processing

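No alternative made more than 3 members pass: 1 with DESeq2, 3 without centring and 0 in every other fit of scaled tags or length; the pathway list had 3 without centring and 0 in the others. Genes past the threshold for scaled tags numbered 154 with DESeq2, 864 without centring, 33 without young replicates 1 and 3 together, 15 with regions overlapping a gene end, 13 at RefSeq starts, 9 within 2 kb, 9 with pseudocount 10, 8 with cyclic loess, 3 among genes called in at least 5 libraries, 1 with IP efficiency as covariate and 0 per kb. Leaving out 1 library gave 3 to 17. For length they numbered 5 without centring, 4 within 2 kb, 19 without young replicates 1 and 3 and 1 to 5 without 1 library. The members' median was −0.41 (tags) and −0.14 (length) without centring, where all genes moved alike. The alternatives without young replicates 1 and 3, at RefSeq starts, as shares of called tags and without Psmb6 were chosen after seeing the data. The cause of these shifts was not tested.

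The deviations of same-numbered libraries had correlations of 0.002, 0.139, 0.115, −0.01 and −0.051. These values cannot show whether same-numbered libraries were prepared together, and the main test did not pair them. With the replicate block 1 gene passed for tags, 0 for length and 0 members in both.

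Among the sums, shares of called tags gave −0.030 for the alpha ring, −0.37 for the beta ring, −0.11 for ATPases, −0.087 for non-ATPase subunits, −0.091 for activators, −0.16 for the binding proteins and −0.13 for all members; the beta ring was −0.33 per kb. With regions at least 8-fold over input the chaperones had −1.54 (tags) and −1.62 (length), the binding proteins −0.88 and −0.60, and all members −0.45 in length.

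Directions of members turned as follows (log2, old minus young). Without centring: Psma1 −0.15, Psma2 −0.16, Psma3 −0.17, Psma7 −0.13, Psmb1 −0.34, Psmb2 −0.32, Psmc1 −0.14, Psmc6 −0.35, Psmd12 −0.13, Psmd13 −0.25, Psmg4 −0.31 and Psmd5 −0.36. Per kb: Psma1 −0.19, Psma4 0.069, Psma5 0.086, Psmb2 −0.077, Psmb3 0.18, Psmb4 0.23, Psmc5 0.14, Psmc6 −0.0010, Psmd7 0.13, Psme1 0.18, Psme4 0.0010 and Psmg4 −0.20. Psma3 was −0.10 with DESeq2, −0.10 with edgeR and −0.13 at RefSeq starts. Among genes called in at least 5 libraries, Psmb1 was −0.015, Psmc6 −0.022 and Psmd5 −0.034. Within 2 kb, Psmb1 was −0.026, Psme1 0.75 and Psmd5 −0.24. At 8-fold over input, Psmb7 was 0.029, Psmd11 0.045 and Psme4 0.043. For regions overlapping an end, Psmc4 was 0.0069, Psmd7 0.012, Psmd11 0.0035 and Psme4 0.0016. Psmc6 was −0.0062 with IP efficiency as covariate and −0.011 with loess, and Psmd11 0.0021 with loess. Without young replicates 1 and 3, Psma3 was −0.13, Psmb1 −0.062, Psmb4 0.012, Psmb7 0.027, Psmc4 0.052, Psmc6 −0.0063, Psmd8 0.11, Psmd11 0.053 and Psmg2 −0.019. Leaving out 1 library, ranges crossed 0 for Psma3 (−0.34 to 0.50), Psma5 (−0.17 to 0.024), Psmb1 (−0.067 to 0.081), Psmb7 (−0.11 to 0.066), Psmc4 (−0.079 to 0.026), Psmc5 (−0.15 to 0.0002), Psmc6 (−0.067 to 0.096), Psmd1 (−0.13 to 0.068), Psmd7 (−0.066 to 0.027), Psmd11 (−0.066 to 0.045), Psme1 (−0.36 to 0.0036), Psme4 (−0.094 to 0.051), Psmg2 (−0.055 to 0.74) and Psmd5 (−0.23 to 0.093). Depth (6295930 to 15544145 tags) limits what a missing call shows.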
